A study of Drosophila melanogaster with 2 samples.

Results

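Of 2897 binding sites of the fly protein CG11696 that did not overlap one another, 404 lay at divergent promoters, where 2 protein-coding genes start back to back. A site was counted there when its summit, the base at which a peak is highest, was within 500 bp of a protein-coding transcription start that had a start of another protein-coding gene on the opposite strand, 1 to 1000 bp upstream. Summits came from the conservative list of peaks on the 7 chromosomes 2L, 2R, 3L, 3R, 4, X and Y, and where peaks overlapped the strongest was kept. The rule used positions and no measure of strength. A further 696 peaks were within 500 bp of a protein-coding start with no such partner, called single-direction promoters here, and 1797 were at neither. All coordinates are on assembly dm6, with genes of Ensembl release 115.

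The peaks came from chromatin immunoprecipitation and sequencing of whole Drosophila melanogaster embryos aged 0 to 24 h, from a strain that carries CG11696 fused to enhanced green fluorescent protein (GFP) as an inserted transgene. The fusion was precipitated with an antibody to GFP, from chromatin sonicated to 200 to 800 bp. There was 1 group with 2 biological replicates, so no conditions were compared, and every tissue of the embryo was mixed. Strength is the authors' signal value, in units of their peak caller, and the read depth behind it is unknown.

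In the compact fly genome many neighbouring genes are transcribed away from each other out of a shared stretch of open chromatin. Such head-to-head promoters often belong to genes that most cells use, for translation, respiration or the handling of RNA. Core promoter elements at them differ from those of many developmental genes, with the DNA replication-related element (DRE) a well-known example. CG11696 is a predicted zinc finger protein, a class of proteins that commonly bind DNA.

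The sequence under the summits is shown first, because it is what the strongest members share in part and where the members at ribosomal protein genes differ. The 6 lines below are windows that reach 50 bp to either side of the summit, from 6 of the 8 strongest members, read from the RefSeq copy of Release 6. Capitals mark the longest run of A and T letters.
Ugalt/eIF2Bbeta (chrX:2703834-2703934, plus strand): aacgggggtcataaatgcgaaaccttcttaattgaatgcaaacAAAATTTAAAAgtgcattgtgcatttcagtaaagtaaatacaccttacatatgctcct
mfrn/Gp93 (chr3R:27948578-27948678, plus strand): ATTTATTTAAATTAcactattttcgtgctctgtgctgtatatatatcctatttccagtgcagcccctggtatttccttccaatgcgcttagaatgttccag
CG13126/CG4709 (chr2L:9954253-9954353, plus strand): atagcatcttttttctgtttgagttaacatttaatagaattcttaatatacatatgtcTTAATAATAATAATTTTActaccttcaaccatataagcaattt
scramb2/Sk2 (chr3L:3046441-3046541, plus strand): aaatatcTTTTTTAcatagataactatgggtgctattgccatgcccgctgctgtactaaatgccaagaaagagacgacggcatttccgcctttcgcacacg
Trs20/elg1 (chr3L:16131620-16131720, plus strand): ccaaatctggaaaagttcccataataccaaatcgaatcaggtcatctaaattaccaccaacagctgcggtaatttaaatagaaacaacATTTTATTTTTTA
Art3/mRpS10 (chr3R:15229478-15229578, plus strand): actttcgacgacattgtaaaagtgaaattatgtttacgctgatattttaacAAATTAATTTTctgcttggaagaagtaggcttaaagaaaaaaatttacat
The run was 18 bp long at CG13126/CG4709, 14 bp at mfrn/Gp93 and 13 bp at Trs20/elg1, but 7 bp at scramb2/Sk2, whose window was 55.4% A and T. The run lay across the summit at Ugalt/eIF2Bbeta, from 7 bp below it to 3 bp above it, and at the edge of the window at mfrn/Gp93 and Trs20/elg1. The longest run thus had no single length or place over the 6 windows. No search for a sequence shared by these 6 was made.

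Members at genes for proteins of the cytosolic ribosome had a lower median A and T content, 52.5% against 70.3% at the other members. The 4 lines below are the windows of 4 such members, chosen after their values were seen, with the letters CGGAAAC or the reverse complement GTTTCCG in capitals. They were taken from the 7 of 32 such members that hold these letters. The other 25 lack them, and 6 of the 372 members at other pairs hold them.
msn/RpL8 (chr3L:2587390-2587490, plus strand): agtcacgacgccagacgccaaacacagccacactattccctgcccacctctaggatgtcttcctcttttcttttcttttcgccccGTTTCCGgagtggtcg
RpL9/Nup154 (chr2L:11004108-11004208, plus strand): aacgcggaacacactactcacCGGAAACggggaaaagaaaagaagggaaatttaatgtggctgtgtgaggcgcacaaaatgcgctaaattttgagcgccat
RpL7A/dx (chrX:6533165-6533265, plus strand): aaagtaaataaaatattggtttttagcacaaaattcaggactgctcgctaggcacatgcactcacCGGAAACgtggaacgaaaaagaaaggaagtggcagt
RpL18/Neos (chr3L:7241274-7241374, plus strand): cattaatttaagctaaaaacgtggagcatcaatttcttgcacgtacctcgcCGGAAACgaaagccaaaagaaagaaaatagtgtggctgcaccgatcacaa
In all 4 windows the capitals read GTTTCCG in the direction in which the ribosomal gene is transcribed. Their A and T content was 45.5% at RpL8, 53.5% at RpL9, 59.4% at RpL7A and 58.4% at RpL18. These were not among the strongest members. The pooled signal value was 165 at RpL8, 102 at RpL9, 92.2 at RpL7A and 58.8 at RpL18, against a median of 120.4 over all members.

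Divergent promoters held a larger share of the peaks than of the genome. The members were 13.9% of all peaks (95% Wilson interval 12.7 to 15.3), on 2.60% of the bases, which came to 113 peaks per Mb. Single-direction promoters held 59.1 peaks per Mb and the rest of the genome 14.7. Ranked peaks that overlapped no peak of the conservative list, called sub-threshold here, were spread more evenly. Of 70336 such peaks, 3.45% lay at divergent promoters, with 678 per Mb there, 639 at single-direction promoters and 494 elsewhere. Intervals here and below cover the counting of peaks, genes or pairs only.

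Counted by gene pairs, 443 of the 2667 annotated head-to-head pairs (16.6%, interval 15.2 to 18.1) had a summit within 500 bp of a head-to-head start. Of these, 17 had 2 peaks and none had more. Of the 5052 genes with a head-to-head start, 743 (14.7%) had a peak at that start. Genes without one had a peak at any of their starts in 572 of 8916 cases (6.42%, interval 5.93 to 6.94). A peak between back-to-back starts counts for both genes, which by itself raises the share per gene.

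The 20 strongest members lay at genes of varied roles. The highest was between Ugalt, a UDP-galactose transporter, and eIF2Bbeta, a subunit of the exchange factor for translation initiation factor eIF2 (chrX:2703745-2704027). Its signal value was 687 in replicate 1 and 645 in replicate 2, and its summit was 32 bp upstream of the Ugalt start. The second was between Ns2, a GTPase of the nucleostemin family, and POSH, a signalling scaffold protein (chr2R:17568398-17568821), with 619 and 664. The peak between mfrn, which imports iron into mitochondria, and Gp93, a chaperone of the endoplasmic reticulum (chr3R:27948418-27948775), had 532 and 657. That between CG13126 and CG4709 had 568 and 539 (chr2L:9954084-9954541). These 4 peaks were high in both replicates, and which replicate was higher differed among them.

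On 3L the highest member had its summit in an intron of scramb2, a phospholipid scramblase, 321 bp from the start that it shares back to back with Sk2, a sphingosine kinase (470.0 and 609.6). It was followed by the peak between Trs20, a subunit of the TRAPP vesicle tethering complex, and elg1, which unloads the replication clamp from DNA (540.0 and 557). The next included 3 pairs with a gene for a mitochondrial ribosomal protein. The peak between mRpL41 and CG8079 had 480.2 and 508, that between Art3, an arginine methyltransferase, and mRpS10 had 447 and 492, and that at mRpS23 and CenG1A had 395 and 439. The peak at CIA30, an assembly factor of respiratory complex I, and CG7601 had 409 and 426. At ND-ASHI, a subunit of that complex, and Fum1, a fumarase, the values were 332 and 373. PNPase, the polynucleotide phosphorylase of mitochondria, and Gprk2, a kinase of G protein-coupled receptors, shared a peak with 398 and 411.

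The remaining 8 of the 20 were at Tcs5/CHMP2B, D19B/CG43293, CG5611/Mtl, CG13390/CG17294, Max/CG42374, CG1275/Elp5, Pex11ab/CG8320 and RhoGAP19D/CG1812. Among their genes are CHMP2B, of the ESCRT membrane remodelling machinery, Max, the partner of Myc, and Elp5, of the Elongator complex. Over the 20 members the mean of the 2 replicates ran from 306 at RhoGAP19D/CG1812 to 666 at Ugalt/eIF2Bbeta. All 20 were in the thresholded lists of both replicates. Summits lay between the starts at 14 and inside a gene at 6.

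**Figure D1:**
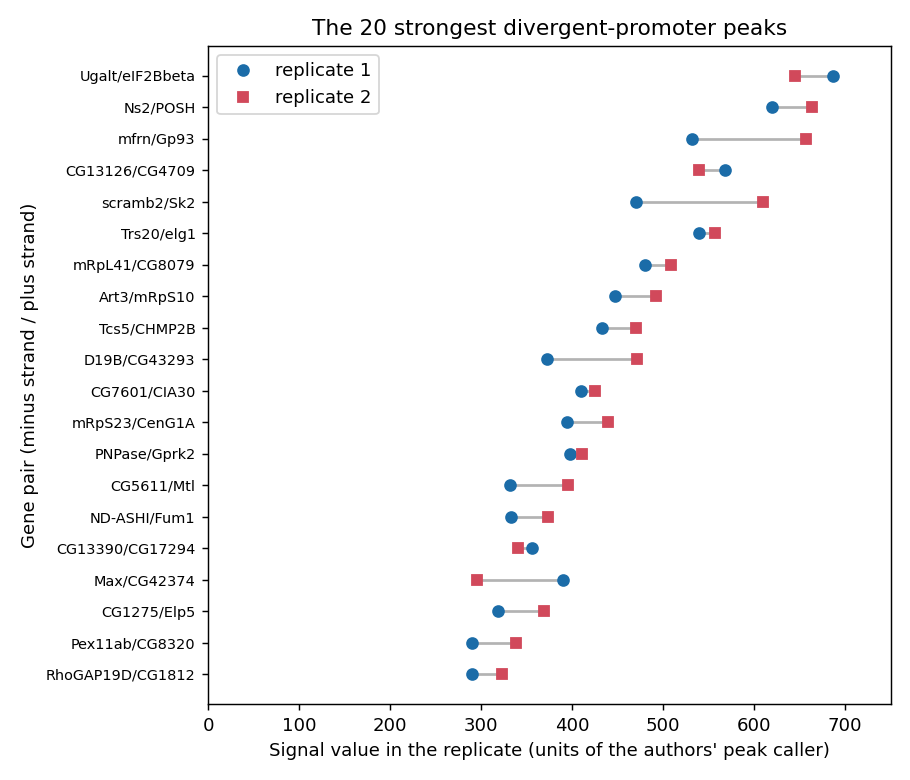
Signal value in replicate 1 (circles) and replicate 2 (squares) of the 20 strongest members, in units of the authors' peak caller, one gene pair per line, minus-strand gene first. Values ran from 290.1 in replicate 1 at Pex11ab/CG8320 to 687 at Ugalt/eIF2Bbeta, and at scramb2/Sk2 and mfrn/Gp93 replicate 2 was higher by more than 100 units.

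As a group, members were about as strong as other peaks. The median signal value of the pooled replicates was 120.4 at divergent promoters, 116 at single-direction promoters and 109.5 elsewhere. Against single-direction promoters the log2 difference of the medians was 0.05 in the pooled values, -0.05 in replicate 1 and 0.13 in replicate 2, with an SD of 0.12 over the replicates. This difference was smaller than the spread between the replicates and did not keep its sign. Against peaks elsewhere it was 0.14 in the pooled values, 0.03 in replicate 1 and 0.17 in replicate 2 (SD 0.10). The weakest members were at CG9008/p38b (36.3 and 31.2), where p38b is a MAP kinase, at Ank2/Mcad (33.9 and 54.6), where Mcad is an acyl-CoA dehydrogenase, and at Pop2/CG6928 (45.0 and 30.8), where Pop2 is a deadenylase. The Pop2/CG6928 peak was the one member whose pooled value, 25.5, was below the mean of its replicates.

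The replicates ranked the members much alike, but the conservative list was itself filtered by irreproducible discovery rate. Agreement between the replicates was thus in part a condition for being a member. The lowest values of members were 29.1 in replicate 1 and 30.8 in replicate 2. Whether a lower limit of the replicate lists kept the values of the weakest members alike was not tested. With the members split by signal into 4 equal parts, the median coefficient of variation between the replicates was 10.7% in the strongest part, 17.5% and 18.0% in those below it and 12.4% in the weakest. Over the 401 members with a value in both, Spearman's rank correlation was 0.781 and Pearson's r of the log values 0.904, as a description across peaks that share libraries. The log2 ratio of replicate 2 to replicate 1 had a median of 0.12 and an SD of 0.42, and 255 members were higher in replicate 2 against 146 in replicate 1. At least 2-fold apart were 10 members, 7 of them higher in replicate 2. The largest gaps were at yin/CG2930, where yin is an oligopeptide transporter (96.5 and 34.8), at tamo/Zfrp8 (39.9 and 97.3) and at smp-30/jvl (73.4 and 32.7). These 3 pairs had middling pooled values, from 105 to 136.

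Of the 404 members, 266 overlapped a thresholded peak of replicate 1 and 282 one of replicate 2, by at least 1 bp. Both lists held 227 of them (56.2%, interval 51.3 to 60.9), and neither held 83. How these 83 came to be in the conservative list was not examined. The share in both lists was 54.9% at single-direction promoters and 50.8% elsewhere. It followed strength. In the strongest of the 4 parts 98.0% of members were in both lists, in the next 85.1%, then 37.6%, and in the weakest 3.96%.

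The distance between the 2 starts went with how often a pair had a peak. Of pairs with starts over 200 and up to 300 bp apart, 128 of 542 (23.6%, interval 20.2 to 27.4) had one, against 16.6% of all pairs. The share was 12.1% at up to 100 bp (52 of 429, 9.36 to 15.6) and 11.5% over 100 and up to 200 bp (41 of 357, 8.58 to 15.2). Over 300 and up to 500 bp it was 18.9% (126 of 667, 16.1 to 22.0), and over 500 bp 14.3% (96 of 672, 11.8 to 17.1). Of these 4 intervals, that of the pairs over 300 and up to 500 bp apart was the one that overlapped the interval of the pairs at 200 to 300 bp. Wider pairs offer more bases around their starts. Per Mb of window there were 187 peaks at 200 to 300 bp, 125 at 300 to 500 bp, 116 at up to 100 bp, 86.2 over 500 bp and 75.2 at 100 to 200 bp. Sub-threshold peaks were in another order, with a share of pairs of 60.0% at 200 to 300 bp and 75.6% over 500 bp.

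**Figure D2:**
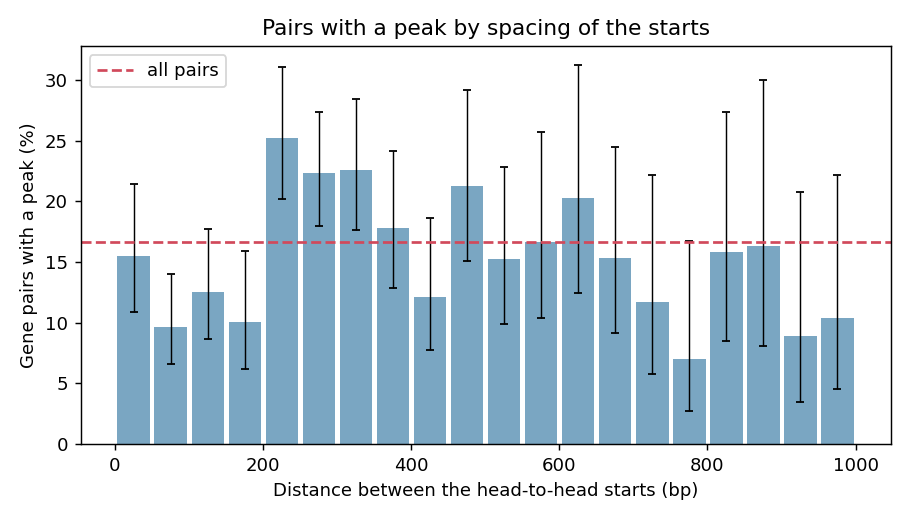
Share of head-to-head gene pairs with a peak (bars, %, with 95% Wilson intervals) by the distance between their starts in steps of 50 bp, and the share over all pairs (dashed line, 16.6%). In the 50 bp below 200 bp the share was 10.1%, and in the 50 bp above it 25.2%, with 61 of 242 pairs.

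Most summits stood between the starts. They lay between the starts in 306 members (75.7%, interval 71.3 to 79.7), inside the minus-strand gene in 56 and inside the plus-strand gene in 42. The bases between the starts are 31.1% of the window that the rule allows, and 31.6% of the sub-threshold peaks lay there. Pairs with starts up to 100 bp apart were an exception. There 1 of 32 members (3.12%) lay between the starts, against 13.4% of sub-threshold peaks, and 31 lay inside a gene, at a median of 80 bp from the start. At single-direction promoters 79.2% of summits were upstream of the nearest start, against 47.7% of sub-threshold ones. The median distance from a member's summit to the nearest head-to-head start was 103 bp, against 162 bp for sub-threshold peaks, and 155 members were over 100 and up to 200 bp away. Nearest to the minus-strand start were 208 members and to the plus-strand start 196, so neither strand stood out. By annotation 232 summits were between genes, 95 in a 5′ UTR, 71 in an intron, 3 in a coding exon and 3 in a 3′ UTR. Fewer were thus between genes than between the starts, since the latter refers to the start pair assigned to each member. At Ank2/Mcad and yin/CG2930, for example, the summit was between the starts and in an annotated intron.

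**Figure D3:**
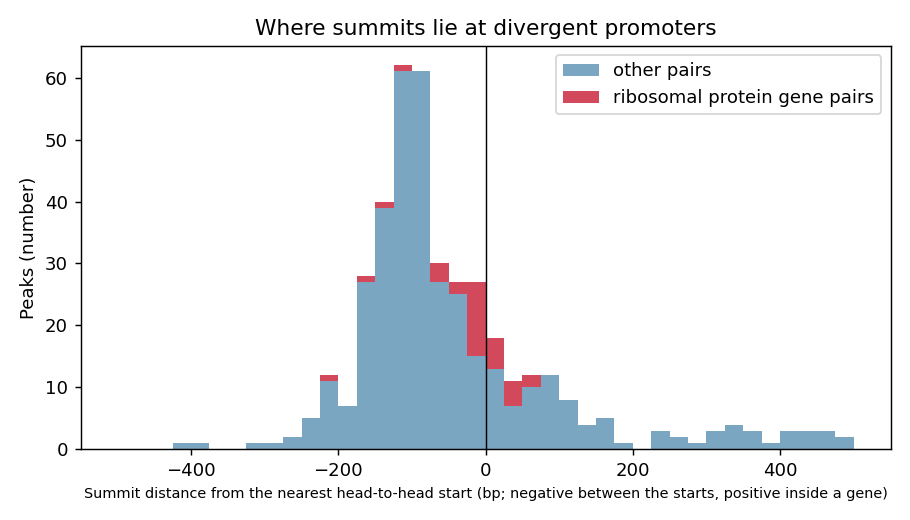
Number of members by the distance of the summit from the nearest head-to-head start (bp, steps of 25 bp; negative between the starts, positive inside a gene), stacked for ribosomal protein gene pairs and other pairs. Most summits of other pairs stood about 100 bp upstream, while those at ribosomal protein genes gathered around the start.

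Summits between the starts were most often in the middle of the gap when the starts were 200 to 300 bp apart. The median distance to the nearest start was 46 bp for starts 100 to 200 bp apart, 97 bp at 200 to 300 bp, 121 bp at 300 to 500 bp and 128.5 bp over 500 bp. The middle part of the gap, 1 of 3 equal parts, held 7 of 18 summits at 100 to 200 bp, 67 of 100 at 200 to 300 bp, 46 of 103 at 300 to 500 bp and 12 of 84 over 500 bp. In 13 cases a pair had 2 members assigned to it, and the 3 with the strongest peak are given here. One was CG7656/RhoGAP71E, with a peak inside CG7656 (209 and 187) and another near the RhoGAP71E start (53.2 and 37.8). At Max/CG42374 the peaks were in an intron of Max (390.4 and 296) and between the starts (69.0 and 63.3). At both pairs the peak inside the gene was the stronger of the 2 in both replicates. At Trmt6/Ent2, where Trmt6, a subunit of a tRNA methyltransferase, has more than 1 annotated start, one peak was 94 bp inside a Trmt6 start (137 and 202) and the other 55 bp upstream of another Trmt6 start (41.3 and 57.2). With the first of these Trmt6 starts both summits lie inside Trmt6, and with the second both lie between the starts.

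On the X chromosome a smaller share of the head-to-head pairs had a peak than on the large autosome arms, with intervals that did not overlap. The comparison was chosen after the counts were seen. On X 42 of 403 pairs had one (10.4%, interval 7.80 to 13.8), and on 2L, 2R, 3L and 3R together 401 of 2253 (17.8%, interval 16.3 to 19.4). Single arms had 19.7% on 3L, 18.7% on 3R, 18.5% on 2L and 14.2% on 2R, whose interval (11.5 to 17.4) overlapped that of X. Genes without a head-to-head start did not have this order, with 7.36% on X (interval 6.11 to 8.84) and 6.28% on the 4 arms (5.75 to 6.85). X held 20.1% of all peaks but 10.1% of the members. Of the promoter peaks on X, 23.2% were at divergent promoters, against 39.4% on the 4 arms. The median spacing of the pairs was 304 bp on X, 3 bp more than on the arms. The share of pairs with a sub-threshold peak was 73.2% on X and 65.7% on the arms. Why fewer pairs on X had a peak was not tested. Among pairs spaced over 200 and up to 300 bp the share with a peak was 10.6% on X and 26.1% on the arms. Members on X had a median signal value of 117, close to the 122 of the arms, and the highest member of all, Ugalt/eIF2Bbeta, was on X. Chromosome 4 had 11 pairs and no member, and Y had no pair.

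**Figure D4:**
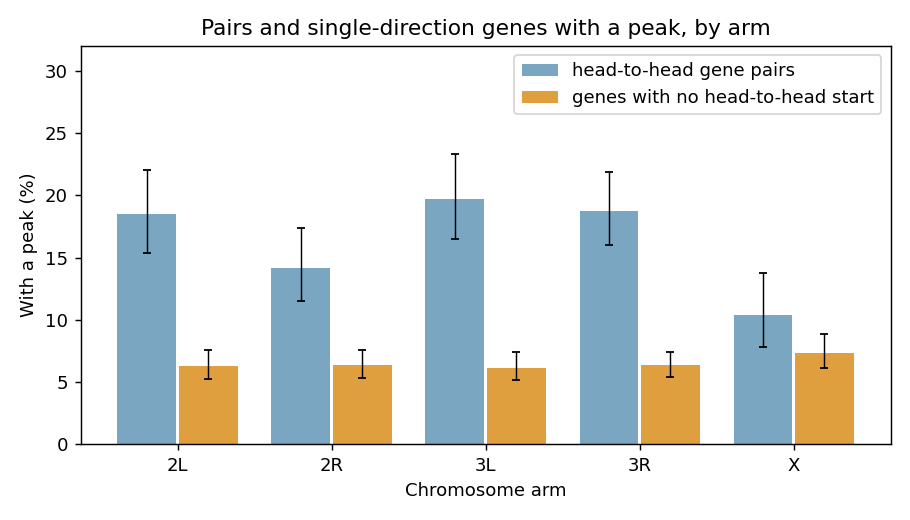
Share with a peak (%, bars, with 95% Wilson intervals) of head-to-head gene pairs and of genes with no head-to-head start, by chromosome arm. The pair share was lowest on X (10.4%), where the share of the other genes was 7.36%.

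Of the 14 groups of genes counted, proteins of the cytosolic ribosome had the highest share with a member. Of its 53 genes with a head-to-head start, 32 had a peak there (60.4%, interval 46.9 to 72.4), against 14.7% of all head-to-head genes. They made up 21 of 31 genes for large-subunit proteins and 11 of 22 for small-subunit proteins. Among the 33 ribosomal protein genes without a head-to-head start, 11 had a peak (33.3%, interval 19.8 to 50.4), against 6.42% of all genes without one. This interval overlapped that of the head-to-head ribosomal protein genes. The strongest at head-to-head starts were at RpL34b (126 and 138), RpS27 (105 and 107), RpL32 (98.9 and 112) and RpL7 (105 and 93.7), and the weakest at RpL36 (36.0 and 31.7). Their median pooled value, 121, was that of the other members (120.4), but few were very strong. The 90th percentile was 195 at ribosomal protein genes and 383 at the other members.

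At ribosomal protein genes the summit was close to the start. The start nearest to the summit was the ribosomal one in 30 of 32 members. Relative to that start the summit had a median of -11.5 bp, upstream, with quartiles of -46.5 and 17.2 bp. Within 50 bp of a start were 23 of the 32 (71.9%, interval 54.6 to 84.4) and 61 of the 372 other members (16.4%, 13.0 to 20.5). The sequence was also poorer in A and T, in windows that lay at unlike distances from the starts. The median over the window was 52.5% at ribosomal protein genes and 70.3% at the others. The median distance to the nearest start was 24.5 bp and 105.5 bp, and windows at equal distance were not compared. With summits 111 to 335 bp upstream, RpL34b, RpS20 and RpL23 had 72.3, 74.3 and 82.2%, and RpL32 had 57.4%. An unbroken run of at least 12 A or T letters was in 5 of 32 and in 186 of 372 windows. One of these members, Dref/RpL13 (77.8 and 63.5), has as its other gene Dref, the factor that binds the DRE.

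Members at mitochondrial ribosomal protein genes were fewer than at the cytosolic ones and covered a wider range of strength. Of their 59 head-to-head genes 12 had a member (20.3%, interval 12 to 32.3), close to the 14.7% of all head-to-head genes, and of the 16 others none had a peak, where 0 allows up to 19.4% and 6.42% of all genes without a head-to-head start had one. Their median pooled value was 269, with 7 of the 12 at 234 or more and 5 from 66.9 to 103, below the median of all members. Besides the peaks at mRpL41, mRpS10 and mRpS23, those at mRpL23 (269 and 331), mRpS2 (190 and 185) and mRpL24 (136 and 164) were high in both replicates. The weakest was at mRpL4 (35.5 and 32.7). Respiratory chain genes had a member at 8 of 48 head-to-head starts (16.7%) and no peak at 45 other genes, where 0 allows up to 7.87% by the Wilson interval and 6.42% of all such genes had one. Among the head-to-head ones ND-ASHI was followed by ND-PDSW (88.5 and 80.7) and blw (46.0 and 74.9), a subunit of ATP synthase.

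Translation factors had a member at 9 of 28 head-to-head genes (32.1%, interval 17.9 to 50.7). The strongest was at eIF4EHP, a repressor that binds the mRNA cap (189 and 176), followed by eIF3a (57.3 and 57.3) and the release factor eRF3 (66.6 and 53.5). RNA polymerase II, its general factors and Mediator had 10 of 43 (23.3%, interval 13.2 to 37.7), with Taf5 (80.2 and 107), MED30 (63.4 and 84.5) and MED27 (78.3 and 78.9) on top. The 14.7% of all head-to-head genes was within the second interval and below the first. Aminoacyl-tRNA synthetases had 3 of 24 (12.5%), led by GluProRS (121 and 164), and vesicle trafficking 9 of 72 (12.5%), led by Trs20 and then alphaCOP, of the COPI coat (108 and 152).

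In the remaining groups the numbers were small, and 14.7%, the share of all head-to-head genes, lay within the interval of each but that of the genes known by a CG number. Genes for insulator and architectural proteins had a member at 3 of 11 (27.3%), namely Chro (272 and 278), Cp190 (83.4 and 89.5) and Dref. Polycomb and trithorax group genes had 3 of 13 (23.1%), with brm, the ATPase of the fly SWI/SNF complex (184 and 196), and the histone methyltransferase complex genes E(z) (70.6 and 97.7) and Su(z)12 (51.2 and 34.7). Splicing had 3 of 27 (11.1%), with Prp18 on top (245 and 256), the nuclear pore 2 of 17 (11.8%), with Nup37 at the RpS27 peak, and DNA replication and repair 2 of 26 (7.69%), with mei-41, a checkpoint kinase (72.5 and 141). The proteasome had 1 of 26 (3.85%), at Rpn3 (58.9 and 93.5), with an interval from 0.682 to 18.9%. Genes known by a CG number alone had 222 of 1757 (12.6%, interval 11.2 to 14.3). No member lay at CG11696 itself.

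The DNA under the members was rich in A and T. The median A and T content of the same windows was 69.3% at the summit and 53.5% in windows 300 bp to either side. It was 66.3% both at single-direction promoters and at peaks elsewhere, and 54.5% at sub-threshold peaks of divergent promoters. Much of this was shared with divergent promoters that had no peak, since windows midway between the starts of those 2224 pairs had a median of 67.3%. Runs of at least 12 A or T letters were in 47.3% of member windows (interval 42.5 to 52.1) and in 37.3% of the midpoint windows of pairs without a peak (35.3 to 39.3). At single-direction promoters the share was 32.3%, and in the flanks of members 12.6% and 15.1%. The strongest of the 4 parts of members had a median of 72.3% and the weakest 66.3%. Across the 404 members, Spearman's rank correlation of signal with A and T content was 0.213, a weak relation given as a description.

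**Figure D5:**
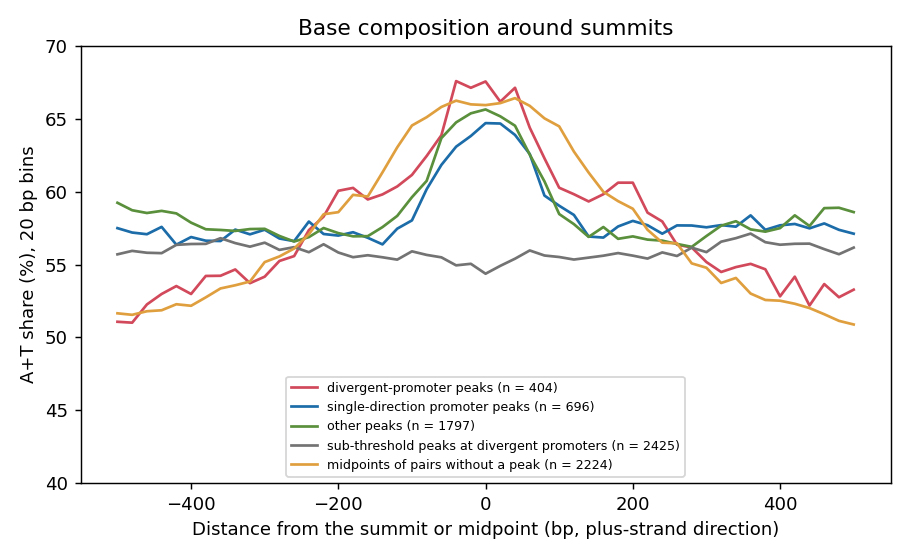
Mean A and T share (%, 20 bp bins, axis from 40 to 70%) by distance from the summit, or from the midpoint of pairs without a peak (bp). The members rose from 51% at the lowest bin to 67.6% near the summit, midpoints of pairs without a peak reached 66.4%, and sub-threshold peaks reached 57.1%.

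Most of the 11 known promoter and insulator sequences searched, on both strands, were rare under the summits. TATAAA, the TATA box letters, was in 93 windows (23.0%, interval 19.2 to 27.4), against 10.02% of flanks, 11.1% of sub-threshold peaks and 22.3% of midpoints of pairs without a peak. The DRE, TATCGATA, was in 12 windows (2.97%), against 1.73% of flanks and 5.40% of those midpoints. With the list of replicate 1 or of replicate 2 alone it was in 6 of 293 or 6 of 306, and the excess over the flanks fell from 1.24 to 0.512 or 0.327 percentage points. Its core CGATA, which every DRE match also holds, was in 16.1% (interval 12.8 to 19.99), against 25.2% of the midpoints without a peak. GAGAGAG, the letters bound by GAGA factor, was in 0 of 404 windows, which allows a share of up to 0.942% by the Wilson interval. It was in 0.743% of flanks, 1.48% of midpoints of pairs without a peak, 1.39% of peaks elsewhere and 3.30% of windows at single-direction promoters.

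For the other sequences the share of member windows is followed by that of their flanks. Motif 1 (GTCACACT) was in 0.990% of windows and 0.866% of flanks, motif 7 (CANCNCTA) in 5.94% and 3.71%, and the initiator letters TCAGT in 13.1% and 14.7%. The Zelda letters CAGGTAG were in 0.248% and 0.743%, the E-box CACGTG in 0.743% and 2.60%, the CTCF letters AGGNGGC in 2.23% and 4.46%, and the Su(Hw) letters GCATACTT in 0.248% and 0.124%. At midpoints of pairs without a peak, motif 1 was in 2.34%, motif 7 in 6.70% and the initiator letters in 16.1%. There the Zelda letters were in 0.405%, the E-box in 0.674%, the CTCF letters in 2.16% and the Su(Hw) letters in 0.495%. The 10 words of 8 letters with the largest excess over the flanks held no G or C. The first was AAATAATT, in 40 windows (9.90%), 1.49% of flanks and 5.89% of midpoints without a peak.

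Among words with at least 3 G or C letters, the first of the 10 was ATCGATAG, which shares ATCGATA with the DRE, in 15 windows (3.71%), 0.990% of flanks and 4.77% of midpoints without a peak. ACTATCGA (2.72%, 0.990% and 2.74%) and GCTATCGA (2.23%, 0.743% and 2.52%) were also among the 10. In these 3 words the members were above their flanks and below the midpoints of pairs without a peak. Others of the 10 overlapped in CGGAAAC, the letters in capitals in the windows of RpL8, RpL9, RpL7A and RpL18 above. These letters were chosen after the counts were seen, so the counts describe and test nothing. They were in 13 member windows, 7 of the 32 at ribosomal protein genes (21.9%, interval 11.0 to 38.8) and 6 of the 372 others (1.61%, interval 0.741 to 3.47). The share was 0.743% in the flanks of members, 2.01% at single-direction promoters and 0.630% at midpoints of pairs without a peak. In promoters of 300 bp, from 250 bp before the start to 50 bp after it, the letters were in 2.82% of all protein-coding genes. Of head-to-head ribosomal protein genes they were in 8 of 32 with a member (25%) and in 3 of 21 without (14.3%), and in 6 of 33 ribosomal protein genes that are not head-to-head (18.2%). These intervals overlapped. Their centre was 19 to 26 bp inside the ribosomal gene in 6 of the 7 windows and at -9 bp, upstream of the start, at RpL18. Of the 13 members with these letters, the strongest was at msn/RpL8, which ranked 126 among all members by pooled signal value.

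Members close to the limits of the rule were as follows. Just inside 500 bp were dbe/PNUTS at 490.0 bp from a head-to-head start (43.2 and 40.9), CG15347/Es2 at 488 bp (65.7 and 66.7) and Max/CG42374 at 472 bp. Just outside were peaks at Pitslre at 523 bp (319 and 366), PXo at 528 bp (44.8 and 46.2) and, also at 528 bp, chr3R:18298221-18298489 (329 and 335). Starts just inside 1000 bp of each other were those of Gnpat/CG5112 at 994 bp (41.4 and 50.6), CG7656/RhoGAP71E at 993 bp and Pax/Lectin-galC1 at 977 bp (42.6 and 69.3). Just outside were CG9992/CG4239 at 1012 bp (41.4 and 31.3), Eno/Rrp40 at 1015 bp (129 and 95) and CG12828/pk at 1026 bp (38.8 and 31.3). Strong and weak peaks thus stood on both sides of the limits.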

How the data were processed

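The authors deposited lists of peaks on assembly dm6, per the deposited descriptions, with a signal value for each peak that is in units of their peak caller. A thresholded and a ranked list was deposited for each of the 2 replicates, and for the replicates together a conservative and an optimal list, filtered by irreproducible discovery rate (IDR). The aligner and the peak caller were not given in the sources used here, and no control sample was analysed here. The read depth is unknown.

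On the 7 chromosomes the conservative list had 3143 peaks, and 246 were dropped for a stronger overlapping one. A summit is the deposited start plus the deposited offset plus 1. Head-to-head starts were 3890 pairs of transcript starts from 19630 protein-coding starts of Ensembl release 115. A member with several pairs in reach (34 members) was given the pair with the nearest start. The value of a replicate is that of the strongest overlapping peak in its own ranked list. Values of the conservative list and of the replicate lists are not on one scale. Sub-threshold peaks are ranked peaks of the conservative ranking that overlap no peak of the thresholded conservative list, with overlaps reduced in the same way. Peaks of the longer optimal list were not taken out of them. Nothing was tested, since there is 1 group. Shares have 95% Wilson intervals, and differences are set beside the SD of the 2 replicates. Windows of 50 bp to either side of a summit were read from RefSeq Release 6. Functions were checked on made-up starts and peaks with Python 3.11.15, numpy 2.4.6, pandas 2.3.3, scipy 1.17.1 and matplotlib 3.10.9.

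Named were the pairs of the 20 strongest members, the highest on each chromosome, the 3 weakest, the 3 with the largest replicate gap, 3 pairs with most members, up to 3 pairs per gene group and the 3 peaks nearest to each side of each limit. The ribosomal windows shown, RpL7, RpL36, mRpL23, mRpS2, mRpL24 and mRpL4 were named after their values were seen. Gene groups were set by gene symbol. The members, the groups and the sequences searched were chosen with earlier results of these data known. The 14 alternatives tried are given in the closing section.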

Additional observations from a re-analysis of the deposited data

How the results depend on the processing

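Of 142 values recomputed under 14 alternatives, 49 moved beyond their interval (or, for signal and A and T content, the SD of the replicates); the cause was not tested beyond what a list's length sets by construction. The shares on X and on the arms, of pairs spaced over 200 and up to 300 bp and the A and T content were added after seeing the data. X was below the 4 arms, pairs spaced over 200 and up to 300 bp above all pairs and ribosomal protein genes above all head-to-head genes in 12 of 12 settings. With a window of 1000 bp around starts, 19.7% of pairs had a peak (20.9% on the 4 arms), 18.0% of head-to-head genes did, members were 17.1% of peaks and 61.9% of summits lay between the starts, and with 250 bp 11.5% of genes and 80.4% of summits did. With starts up to 500 bp apart members were 10.6% of peaks and 16.0% of genes had one, and up to 2000 bp apart 17.6% and 13.7%. With the 5′ end of each gene alone members were 12.3% of peaks, and 66.7% of summits lay between the starts. With the optimal list the shares were 19.4% of pairs (20.6% on the arms), 17.0% of genes, and 47.6% of members in both replicate lists. With the stronger 50% of peaks they were 9.41% of pairs (10.2% on the arms, 5.46% on X, 13.8% at that spacing), 8.14% of genes, 32.1% of ribosomal protein genes and 88.9% in both lists, and the log2 signal difference from single-direction promoters turned to -0.11. The median A and T content exceeded that of the flanks by 15.8 percentage points, and by 14.9 with a window of 1000 bp around starts or with all overlapping peaks kept, 17.8 with starts up to 500 bp apart or the stronger 50% of peaks, 13.9 with starts up to 2000 bp apart, 11.4 in windows of 100 bp to either side and 15.3 to 15.8 with the list of 1 replicate. A reciprocal overlap of 50% left 49% in both lists. In windows of 100 bp to either side the excess over the flanks was 4.70 percentage points for the DRE and 21.9 for TATAAA, and in windows of 25 bp to either side 4.33 for TATAAA. With the list of 1 replicate the excess of the DRE was 0.327 to 0.512, against 1.24. With the list of 1 replicate alone, pairs with a peak were 12.5 to 12.7% (13.3 to 13.7% on the arms, 7.44 to 8.44% on X, 18.4% with either at that spacing), genes 10.7 to 11.1%, ribosomal protein genes 41.5 to 45.3%, summits between the starts 70.6 to 75.2%, and the log2 signal difference -0.076 to -0.047. No paired analysis was possible because there is 1 group. Summit positions are limited by sonicated fragments of 200 to 800 bp, and weak sites by an unknown depth.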
